A study of Mus musculus with 10 samples.

Results

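Dietary fat is absorbed in the small intestine by a chain of proteins whose genes are among the most highly expressed in the jejunum, and 10 of these genes are described here: Apoa1, Apoa4, Apoc3, Apob, Mttp, Fabp1, Fabp2, Mogat2, Dgat1 and Sar1b. They were chosen by gene symbol for their role in chylomicron assembly, and each symbol matched 1 of the 45707 rows of the deposited table. The table holds RNA sequencing of the jejunum of 10 mice, 1 library per mouse. All 10 were male and carried Villin-Cre, a Cre recombinase expressed in intestinal epithelial cells from the villin promoter. The study used littermates of both genotypes, and which of these mice shared a litter is not given. The 5 controls (Vil-Cre) carried only the recombinase. The other 5 (Vil-Cre:NDI1) also carried NDI1, the single-subunit NADH dehydrogenase of yeast, behind a lox-stop-lox cassette at the ROSA26 locus, so that its expression depends on Cre and is directed to the epithelium. Every mouse was fasted for 16 to 18 h, gavaged with water and killed 1 h later, and the luminal contents were flushed out. The age range of 7 to 12 weeks is that of all procedures on mice fed standard chow. The exact age of each mouse sequenced here is not given.

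Enterocytes take up the fatty acids and monoacylglycerols released from dietary fat and bind them to the fatty acid-binding proteins of the cytosol. The lipids are built back into triacylglycerol at the endoplasmic reticulum, by MOGAT2 and then by the diacylglycerol acyltransferases. The microsomal triglyceride transfer protein loads this triacylglycerol onto apolipoprotein B, apolipoproteins A-I, A-IV and C-III join the particle, and the prechylomicron leaves for the Golgi in vesicles that need the GTPase SAR1B. In people, loss of apolipoprotein B, of the transfer protein or of SAR1B causes inherited fat malabsorption.

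The libraries held between 10145705 and 12371530 reads on genes. NDI1 was at 982 to 2575 normalized counts in the 5 Vil-Cre:NDI1 mice, 1 read was assigned to it in Vil-Cre 3 and 0 in the other controls, and limma gave an adjusted p of 7.14e-09, so every library matched its labelled genotype. The 11 enterocyte markers examined were all expressed, with a summed level of 237977 to 340627 normalized counts in Vil-Cre mice and 306515 to 410607 in Vil-Cre:NDI1 mice, and the most abundant was Anpep, a brush-border aminopeptidase. A normalized count is the number of reads of a gene divided by the size factor of its library. Because the tissue is a mixture of cells, fewer enterocytes and less of an RNA per enterocyte cannot be told apart in these values.

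No difference between the genotypes passed the test for any of the 10 genes (0 of 10 at an adjusted p under 0.05 with limma, where 0.00699% of 14301 tested genes passed). The larger differences were between mice of the same genotype. Fabp1, Apoa4 and Apoc3 differed several-fold from mouse to mouse, and the 5 highest mice for Fabp1 were the 5 lowest for Fabp2. On a list of genes that differ along the small intestine, drawn up after these values had been seen, 7 of 7 distal genes had the same 5 highest mice as Fabp2 and 4 of 7 proximal genes had those of Fabp1. The 10 genes together made up 2.67% to 4.44% of all normalized counts in Vil-Cre mice and 3.27% to 4.32% in Vil-Cre:NDI1 mice. Each gene is described below with its value in every mouse, and mice are listed from replicate 1 to replicate 5.

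**Figure D1:**
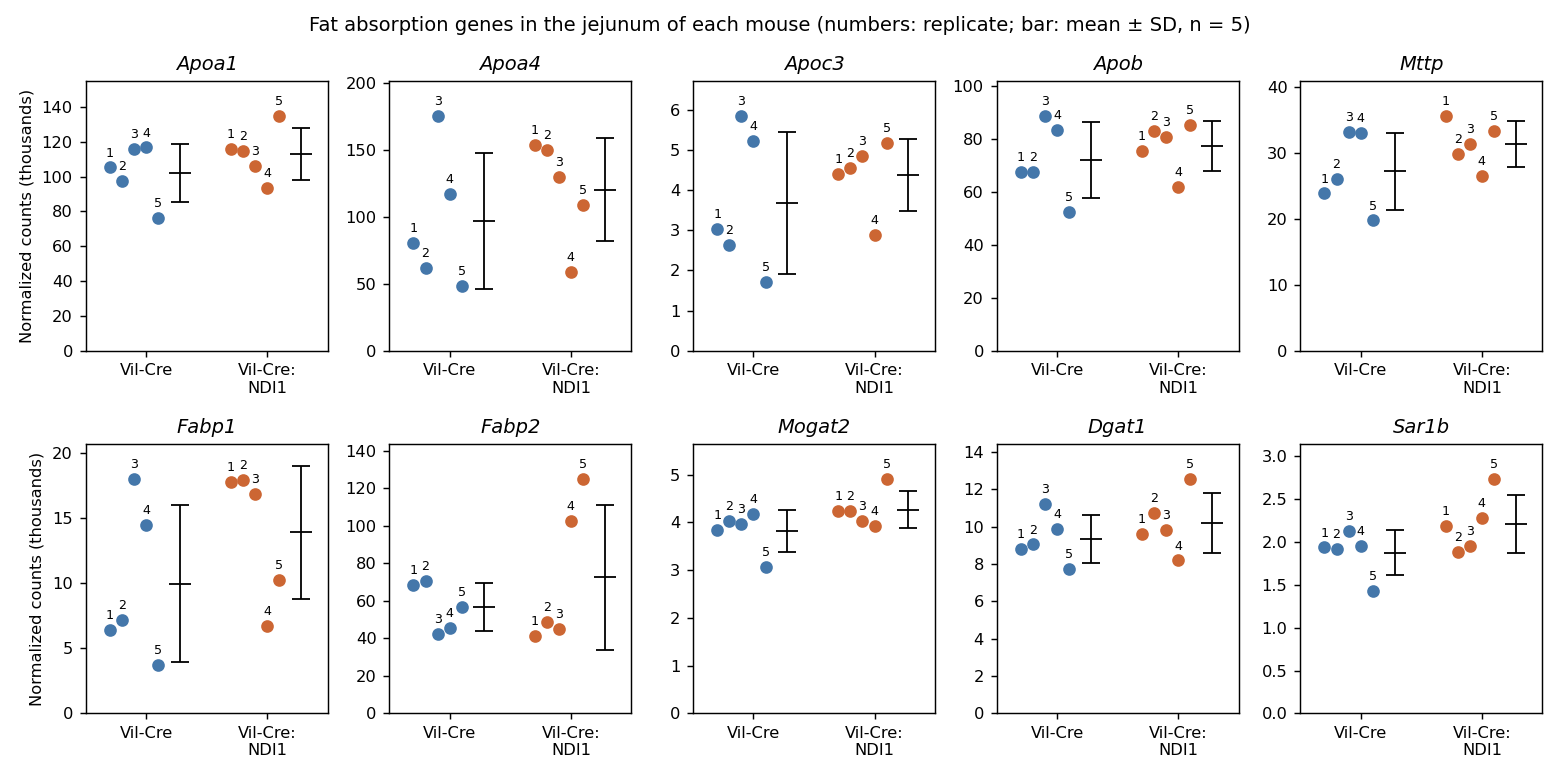
Normalized counts (in units of 1000, axes from 0) of the 10 fat absorption genes in each mouse, with 1 point per mouse numbered by replicate and the mean ± SD of 5 mice beside the points. The ranges of the genotypes overlap in all 10 genes, where 0.699% of all tested genes have ranges apart, and Vil-Cre 5 is the lowest of the 10 mice in 9 of them.

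3 of the genes lie side by side on mouse chromosome 9 (GRCm38) within 14880 bp. Apoa1 (46228580 to 46230466, plus strand) encodes apolipoprotein A-I, the main protein of high-density lipoprotein, which the gut also puts on chylomicrons. Its normalized counts were 105373, 97391, 115848, 116836 and 76096 in Vil-Cre mice, and 115978, 114610, 106399, 93576 and 134760 in Vil-Cre:NDI1 mice. The highest mouse was thus Vil-Cre:NDI1 5 and the lowest was Vil-Cre 5, only 1.77-fold apart, and the other mice of both genotypes were interleaved. Apoa1 averaged 102309 ± 16696 (SD, n = 5) in controls and 113064 ± 15048 (SD, n = 5) with NDI1, a log2 fold change of 0.15 (standard error 0.17, limma adjusted p = 0.998).

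Apoc3 (46232933 to 46235636, minus strand) encodes apolipoprotein C-III, an inhibitor of lipoprotein lipase. Its nearer end, which on the minus strand is the end of the gene, lies 2466 bp beyond the end of Apoa1. Vil-Cre mice had 3031, 2630, 5837, 5215 and 1703 normalized counts of Apoc3, and Vil-Cre:NDI1 mice had 4403, 4559, 4857, 2875 and 5169. Both the highest mouse (Vil-Cre 3) and the lowest (Vil-Cre 5) were controls, and they differed 3.43-fold. The means were 3683 ± 1764 and 4373 ± 887 (SD, n = 5 each), and the log2 fold change was 0.36 (standard error 0.31, limma adjusted p = 0.998).

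Apoa4 (46240696 to 46243459, plus strand) encodes apolipoprotein A-IV, a protein made chiefly by enterocytes and secreted with chylomicrons. Its counts were 80178, 62046, 175027, 117299 and 48578 in Vil-Cre mice, and 153501, 149984, 129447, 58891 and 109025 in Vil-Cre:NDI1 mice. Vil-Cre 3 again was highest and Vil-Cre 5 lowest, 3.60-fold apart, and Vil-Cre:NDI1 4 stood as low as the low controls. Apoa4 averaged 96626 ± 50865 in controls and 120169 ± 38617 with NDI1 (SD, n = 5 each), with a log2 fold change of 0.39 (standard error 0.37, limma adjusted p = 0.998). An antisense gene, Gm10680, shares 632 exonic bases with Apoa4 and was at a mean of 1948 normalized counts. Whether reads were counted by strand is not given in the sources used here, so reads of this pair may be exchanged.

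The close neighbours did not keep a fixed proportion. For each normalized count of Apoa1 there were 0.761, 0.637, 1.51, 1.00 and 0.638 of Apoa4 in Vil-Cre mice and 1.32, 1.31, 1.22, 0.629 and 0.809 of Apoa4 in Vil-Cre:NDI1 mice. A ratio within a library does not depend on its size factor. It was 1.00 or more in Vil-Cre 3 and 4 and in Vil-Cre:NDI1 1, 2 and 3, and 0.809 or less in the other 5 mice, so mice of both genotypes stood on each side.

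Apob (chromosome 12, 7977648 to 8016835, plus strand) encodes the structural protein that stays with a chylomicron from assembly to clearance. It was at 67477, 67466, 88550, 83522 and 52470 normalized counts in Vil-Cre mice, and at 75491, 83032, 80824, 61806 and 85118 in Vil-Cre:NDI1 mice. The range over all 10 mice was 1.69-fold, and its ends were again the controls Vil-Cre 3 and Vil-Cre 5. The means of 71897 ± 14397 and 77254 ± 9350 (SD, n = 5 each) differed by a log2 fold change of 0.12 (standard error 0.17, limma adjusted p = 0.998).

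Mttp (chromosome 3, 138089854 to 138144968, minus strand) encodes the lipid-transferring subunit of the microsomal triglyceride transfer protein. Its normalized counts were 23807, 26010, 33154, 33006 and 19741 in Vil-Cre mice, and 35507, 29740, 31318, 26504 and 33308 in Vil-Cre:NDI1 mice. Vil-Cre 1, 2 and 5 were below every Vil-Cre:NDI1 mouse, while Vil-Cre 3 and 4 were among the 4 highest mice. Mttp averaged 27144 ± 5867 in controls and 31275 ± 3434 with NDI1 (SD, n = 5 each). Its log2 fold change was 0.23 (standard error 0.16, limma adjusted p = 0.998).

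The fatty acid-binding proteins differed from each other in which mice were high. Fabp1 (chromosome 6, 71199827 to 71205023, plus strand) encodes the liver-type protein, which is also abundant in the proximal intestine, where it binds fatty acids and monoacylglycerol and takes part in the budding of prechylomicron vesicles. Fabp2 (chromosome 3, 122895072 to 122899506, plus strand) encodes the intestinal-type protein, which binds fatty acids alone. Because the mice high in one of these members were low in the other, the sequence upstream of each start is shown, taken from RefSeq (GRCm38.p6) on the plus strand. The Fabp1 stretch is chr6:71199629-71199826, which is 198 bases ending before the first annotated base of the gene, and the Fabp2 stretch is chr3:122894822-122895071, 250 bases long. Capitals mark matches to any of 6 motifs searched on both strands, which are TATAAA for the general TATA box, CAAAGTC for HNF4, GTTAAT for HNF1, CCATAAA for CDX2, AGATAA for the factors of the GATA family and TGACGTC for the cyclic AMP response element.
Fabp1: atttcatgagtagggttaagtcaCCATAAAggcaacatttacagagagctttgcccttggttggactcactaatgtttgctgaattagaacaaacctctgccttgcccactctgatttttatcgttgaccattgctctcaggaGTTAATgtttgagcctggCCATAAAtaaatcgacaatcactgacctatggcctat
Fabp2: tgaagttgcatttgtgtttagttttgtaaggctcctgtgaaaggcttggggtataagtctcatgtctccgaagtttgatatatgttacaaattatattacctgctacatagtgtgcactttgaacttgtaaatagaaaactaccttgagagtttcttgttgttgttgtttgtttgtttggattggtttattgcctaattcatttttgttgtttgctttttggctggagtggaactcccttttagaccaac

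Counted from the RefSeq start of Fabp1, base 71199879, CCATAAA begins 227 and 89 bases upstream and GTTAAT begins 107 bases upstream, and a TATAAA that is not printed begins 30 bases upstream. None of the 6 motifs occurs in the 250 bases of Fabp2. For comparison, CCATAAA is found in 2.43% and GTTAAT in 6.43% of the 32851 RefSeq promoter windows of the same 250 bases, and TATAAA in 12.4%. The windows of 7 of the 10 genes were found, those of Apoa1, Apoa4, Apob, Mttp, Fabp1, Fabp2 and Sar1b. Besides Fabp1 only Apob held a match, a TATAAA beginning 60 bases upstream of its RefSeq start. The windows end at RefSeq starts, which can differ from the gene coordinates given here. By those coordinates the Mttp window lies wholly inside the gene, and the windows of Apoa1, Apoa4 and Apob run past the first base of the gene. For these genes the search did not cover upstream sequence alone. A match is a match of letters and was not tested for binding. Only these exact letters were searched, so a window without a match may still hold a variant site.

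Fabp1 was at 6408, 7195, 17987, 14488 and 3735 normalized counts in Vil-Cre mice, and at 17752, 17919, 16809, 6735 and 10227 in Vil-Cre:NDI1 mice. Vil-Cre 3 and 4 stood with Vil-Cre:NDI1 1, 2 and 3 at 14488 or more, and the remaining mice of both genotypes stood at 10227 or less. The whole range was 4.82-fold, and the genotypes overlapped between 6735 and 17919. Vil-Cre 1 and 5 lay below every Vil-Cre:NDI1 mouse. The means were 9963 ± 5999 in controls and 13888 ± 5106 with NDI1 (SD, n = 5 each), which is the widest relative spread of the 10 genes (60.2% of the mean in controls). The log2 fold change of 0.61 was the largest of the 10 but came with a standard error of 0.42 (limma adjusted p = 0.998), and its 95% confidence interval ran from 0.802-fold to 2.89-fold.

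Fabp2 was at 68345, 70500, 42295, 45613 and 56618 normalized counts in Vil-Cre mice, and at 41060, 48610, 44818, 102522 and 124876 in Vil-Cre:NDI1 mice. The order was turned around: Vil-Cre 3 and 4 and Vil-Cre:NDI1 1, 2 and 3, the 5 highest mice for Fabp1, were the 5 lowest for Fabp2. Vil-Cre:NDI1 4 and 5 were above every other mouse, and they alone set the higher mean with NDI1, 72377 ± 38633 against 56674 ± 12811 in controls (SD, n = 5 each). The log2 fold change was 0.22 (standard error 0.32, limma adjusted p = 0.998), and it was -0.01 without Vil-Cre:NDI1 5.

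For each normalized count of Fabp1 there were 10.7, 9.80, 2.35, 3.15 and 15.2 of Fabp2 in Vil-Cre mice, and 2.31, 2.71, 2.67, 15.2 and 12.2 in Vil-Cre:NDI1 mice. No mouse had a ratio between 3.15 and 9.80. The lowest and the highest ratio were nearly the same in both genotypes, 2.35 and 15.2 in controls against 2.31 and 15.2 with NDI1, and the means of 8.24 ± 5.42 and 7.02 ± 6.19 (SD, n = 5 each) differed by less than the spread between mice.

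**Figure D2:**
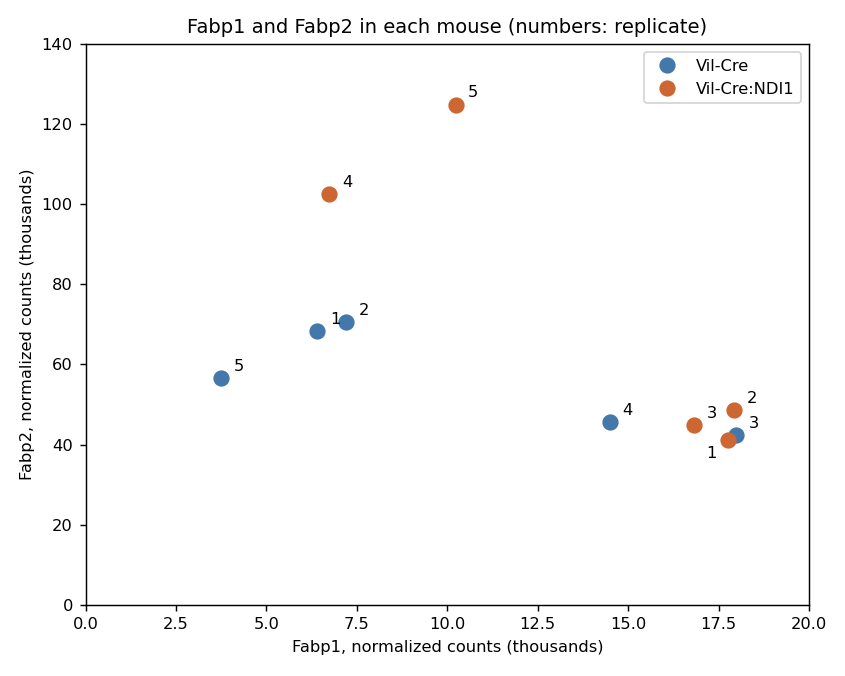
Fabp2 against Fabp1 in each mouse (normalized counts in units of 1000 on both axes, 1 point per mouse, numbered by replicate and coloured by genotype). Vil-Cre 3 and 4 lie with Vil-Cre:NDI1 1, 2 and 3 at the lower right, with 2.31 to 3.15 counts of Fabp2 per count of Fabp1, and the other 5 mice lie at the upper left with 9.80 to 15.2.

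Of the enzymes of triacylglycerol synthesis, Mogat2 had the smallest coefficient of variation of the 10 genes in both genotypes, and Dgat1 varied more. Mogat2 (chromosome 7, 99219084 to 99238619, minus strand) encodes monoacylglycerol acyltransferase 2, which makes diacylglycerol from absorbed monoacylglycerol. Its normalized counts were 3837, 4023, 3960, 4184 and 3065 in Vil-Cre mice, and 4239, 4235, 4029, 3926 and 4908 in Vil-Cre:NDI1 mice. Vil-Cre 5 stood below the rest and Vil-Cre:NDI1 5 above, and the other 8 mice lay between 3837 and 4239. The means of 3814 ± 436.8 and 4267 ± 382.5 (SD, n = 5 each) differed by a log2 fold change of 0.17 (standard error 0.10, limma adjusted p = 0.998).

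Dgat1 (chromosome 15, 76502015 to 76511953, minus strand) encodes one of the enzymes that add the last fatty acid to triacylglycerol. It was at 8797, 9051, 11206, 9895 and 7747 normalized counts in Vil-Cre mice, and at 9616, 10731, 9837, 8194 and 12562 in Vil-Cre:NDI1 mice. Here too Vil-Cre 5 was lowest and Vil-Cre:NDI1 5 highest, 1.62-fold apart. Dgat1 averaged 9339 ± 1294 and 10188 ± 1609 (SD, n = 5 each), with a log2 fold change of 0.12 (standard error 0.13, limma adjusted p = 0.998).

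Sar1b (chromosome 11, 51763687 to 51791925, plus strand) encodes the GTPase of the COPII coat that carries prechylomicrons out of the endoplasmic reticulum. Vil-Cre mice had 1938, 1916, 2132, 1959 and 1434 normalized counts, and Vil-Cre:NDI1 mice had 2189, 1883, 1952, 2286 and 2737. Of the controls, 4 lay between 1916 and 2132, within the range of the Vil-Cre:NDI1 mice, and Vil-Cre 5 was lowest of all. The means were 1876 ± 261.6 and 2209 ± 338.2 (SD, n = 5 each), the log2 fold change was 0.24 (standard error 0.13, limma adjusted p = 0.998), and this was the smallest unadjusted p of the 10 genes, 0.0898 with limma.

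In all, 0 of the 10 genes passed the adjusted threshold of 0.05 with limma, and of all 14301 tested genes (0.00699% called) only NDI1 did. At an unadjusted p under 0.05 there were also 0 of 10, against 4.24% of all tested genes, and two-sided exact permutation tests gave p-values from 0.0873 (Mogat2) to 0.532 (Fabp2). All 10 log2 fold changes were above 0, from 0.12 to 0.61, where 51.2% of all tested genes were, and their median was 0.22 beside 0.01 over all tested genes. The size of this median rested in part on 2 mice. It was 0.12 without Vil-Cre 5, the mouse lowest in 9 of the 10 genes, and 0.13 without Vil-Cre:NDI1 5, the mouse highest in 5 of them. The genes other than Fabp2 rose and fell together over the mice, so their shared sign is not 10 separate observations. The ranges of the genotypes overlapped in 10 of 10 genes, and 0.699% of all tested genes had ranges apart. For 7 of the 10 genes the 95% confidence interval lay within 2-fold in either direction. It reached beyond 2-fold for Fabp1, for Apoa4 (up to 2.28-fold) and for Apoc3 (up to 2.05-fold), so a 2-fold difference lay within the interval of these 3.

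**Figure D3:**
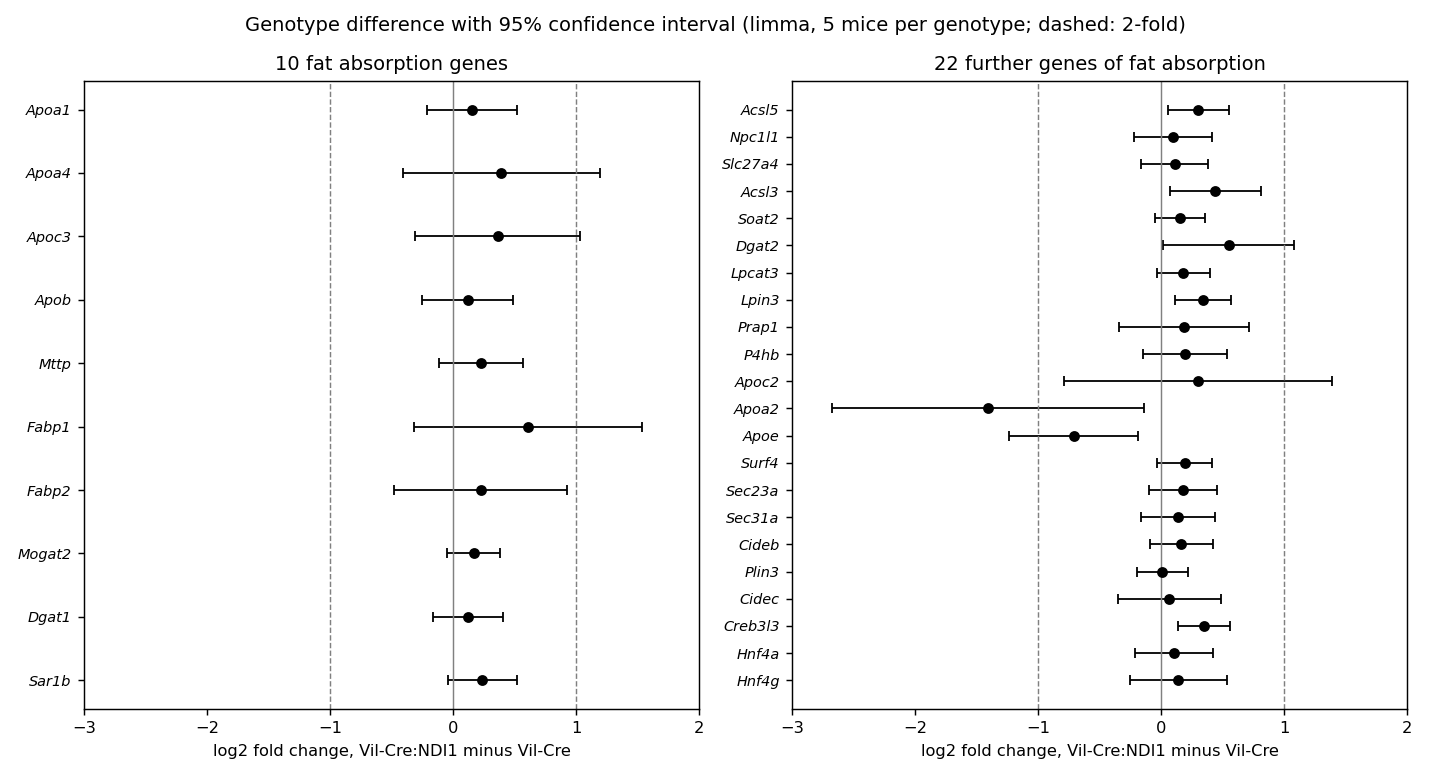
Log2 fold change (Vil-Cre:NDI1 minus Vil-Cre) with its 95% confidence interval from limma, for the 10 fat absorption genes (left) and 22 tested genes of the wider pathway, those among the 3 highest of their list per kilobase or with an unadjusted p under 0.05 (right), with dashed lines at 2-fold. All 10 intervals on the left include 0, and those of Fabp1, Apoa4 and Apoc3 extend beyond 2-fold.

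Other tests also called none of the 10 genes, with 1 exception. On whole reads recovered from the 10 libraries, DESeq2 with local dispersions called 0 of the 10, where it called 0.183% of all genes, and edgeR called 0 of 10 against 0.00699%. limma with a weight for each mouse called 0 of 10 against 0.014%. The count tests were also run without Vil-Cre 3 and Vil-Cre 4, the libraries with size factors nearest to 1, although whole reads were recovered for 100% of values in both. In these 8 libraries DESeq2 called 2 of the 10, Fabp1 (log2 fold change 1.26, adjusted p = 0.00892) and Apoc3 (0.83, adjusted p = 0.0135), and 1.77% of all genes. The 2 mice left out there are the 2 controls with the highest Fabp1 and Apoc3. edgeR called 0 of the 10 in the same 8 libraries, where it called 0.00718% of all genes.

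Levels can be set side by side between genes only per length, here as normalized counts per kilobase of merged exons. Apoa1 was highest at 82774 ± 13508 in controls (SD, n = 5), followed by Fabp2 at 58730 ± 13275, Apoa4 at 53237 ± 28025 and Fabp1 at 18016 ± 10848. After a gap came Apob at 5160 ± 1033, Mttp at 4374 ± 945.5, Apoc3 at 3632 ± 1739, Dgat1 at 3056 ± 423.6, Mogat2 at 2078 ± 238 and Sar1b at 1495 ± 208.4. The order of the means was the same in Vil-Cre:NDI1 mice. In the controls, the ranges over mice of neighbours in this order overlapped except between Fabp1 and Apob and between Dgat1 and Mogat2, so the order of most neighbours is not beyond the spread of the mice. By merged exons, genes further apart in the order could be separate, as Apob (3766 to 6355) and Dgat1 (2535 to 3667) were. Of the 14255 tested genes with an annotated length, Apoa1 ranked 3, Fabp2 6, Apoa4 8 and Fabp1 24 by this measure, and even Sar1b, the lowest of the 10, ranked 356. With the length of the longest transcript in place of merged exons, 7 of the 10 kept their place. Dgat1 then averaged 4947 in controls, within the range of Apob, so Apob and Dgat1 were separate only by merged exons. Mttp then averaged 6849, above the lowest control for Fabp1 (6755).

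**Figure D4:**
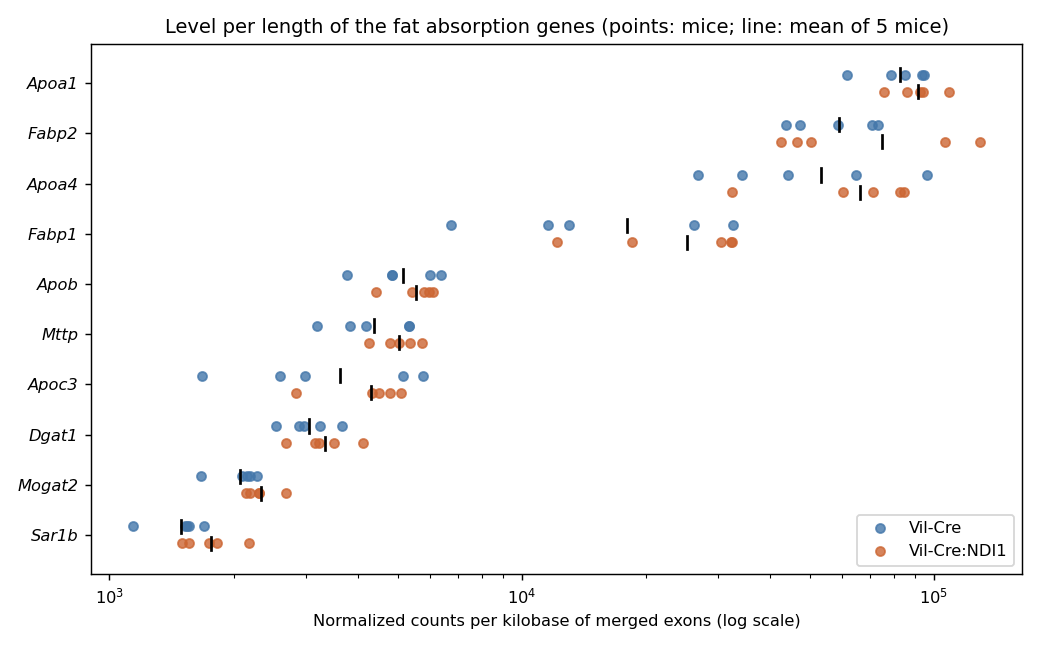
Level per length of the 10 genes (normalized counts per kilobase of merged exons, log scale), with 1 point per mouse, coloured by genotype, and a line at the mean of 5 mice. The genes span from about Sar1b at 1495 to Apoa1 at 82774 in the control mean, and the points of both genotypes overlap in each gene.

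The spread between mice was far above counting error. The gene with the fewest reads, Sar1b, had at least 1476 reads in every library, so that counting alone gives a coefficient of variation of at most 2.6%, while the observed values ran from 8.96% (Mogat2 with NDI1) to 60.2% (Fabp1 in controls). Genes with a mean of at least 1000 normalized counts, 2168 in number, had a median coefficient of variation of 12.2% in Vil-Cre mice and 11.6% in Vil-Cre:NDI1 mice. In controls 9 of the 10 genes were above that median, all but Mogat2, and with NDI1 8 of 10 were. Fabp1, Apoa4 and Apoc3 varied most in controls (60.2%, 52.6% and 47.9%), and Fabp2 varied most with NDI1 (53.4%).

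The 5 mice that were highest in Fabp1 were also the 5 highest in Apoa4, and 4 of them were among the 5 highest in Apoa1, Apob, Apoc3, Mttp, Dgat1 and Mogat2. For Sar1b the number was 3 and for Fabp2 it was 0. Of all 14301 tested genes, 2.67% had exactly the 5 highest mice of Fabp1 and 2.24% exactly those of Fabp2. Among 77 tested genes of the wider pathway, 10 had the 5 highest mice of Fabp1, and they include Cd36, a fatty acid translocase, Slc27a2, a fatty acid transport protein, Acsl1, an acyl-CoA synthetase, Agpat3, an acyltransferase of phosphatidic acid synthesis, and Apoc2, the activator of lipoprotein lipase. These 5 were named after their values were seen, as was Agpat2. Apoc2 ran from 1259 normalized counts in Vil-Cre 5 to 7532 in Vil-Cre 3. The 2 pathway genes with the 5 highest mice of Fabp2 were Hnf4a, a nuclear receptor of enterocyte genes, and Agpat2, another acyltransferase.

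Genes known to differ along the small intestine were set beside this order of the mice. A list of 7 proximal and 7 distal genes was drawn up after these values had been seen, and it is a description that was not tested. Onecut2, a transcription factor of the proximal gut, was at 62.6, 41.6, 744, 407 and 33.0 normalized counts in Vil-Cre mice and at 580, 341, 430, 20.6 and 81.0 in Vil-Cre:NDI1 mice. Fabp6, the ileal bile acid-binding protein, was at 36.4, 325, 5.01, 0 and 1477 in Vil-Cre mice and at 4.90, 0.911, 0.968, 772 and 201 in Vil-Cre:NDI1 mice. Thus Onecut2 was high, and Fabp6 at or near 0, in just the mice with high Fabp1 and low Fabp2.

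The same split was seen for Slc10a2, the apical bile acid transporter of the ileum, at 199, 561, 6.01, 12.1 and 561 in Vil-Cre mice and 2.94, 20.9, 7.75, 541 and 220 in Vil-Cre:NDI1 mice. All 7 distal genes (Fabp6, Slc10a2, Slc51a, Slc51b, Fgf15, Pyy and Nts) had the same 5 highest mice as Fabp2, and 4 of the 7 proximal genes (Onecut2, Gata4, Lct and Gip) had those of Fabp1. The proximal genes Cck, Slc40a1 and Cybrd1 did not, and shared 4, 2 and 1 of the 5 highest mice with Fabp1 and 1, 3 and 4 with Fabp2. Lct, which encodes lactase and defines the proximal to middle small intestine, was expressed in every mouse, from 6088 normalized counts in Vil-Cre 5 to 31347 in Vil-Cre 3. The position along the jejunum from which each sample was cut is not given in the sources used here, and its part in the values of Fabp1, Fabp2, Apoa4 and Apoc3 was not tested.

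**Figure D5:**
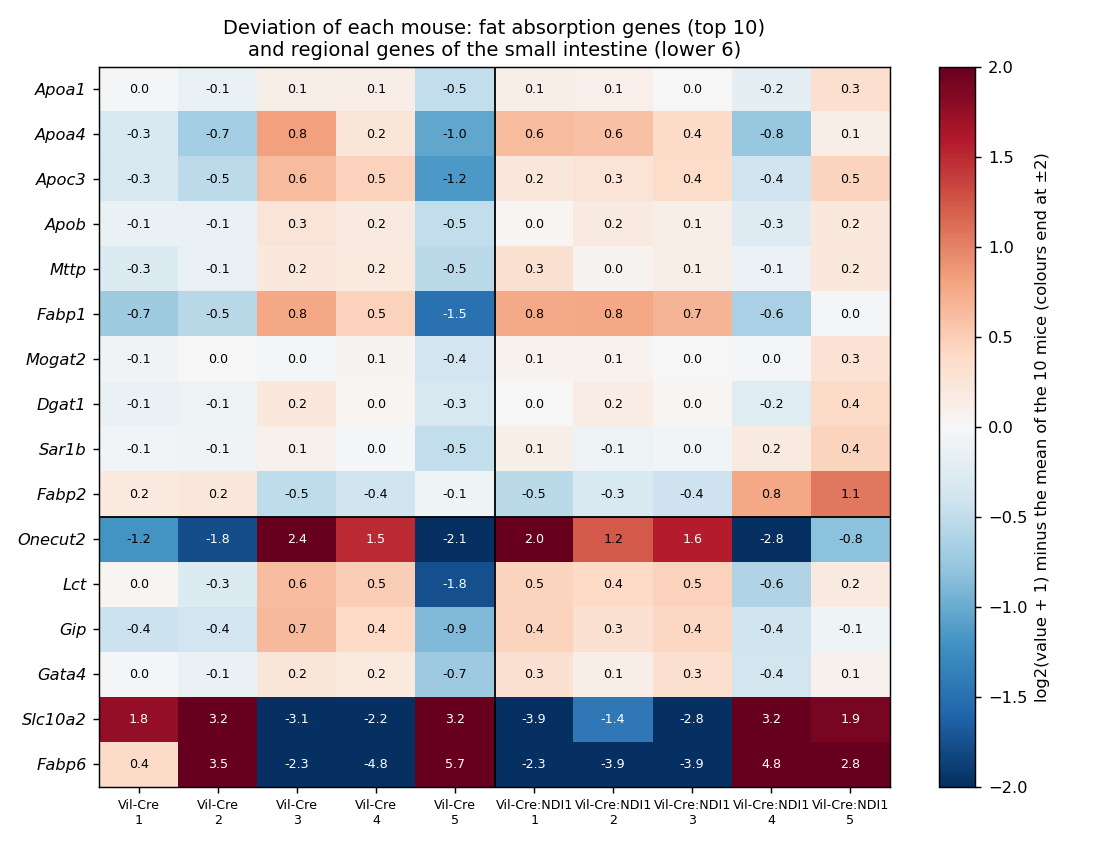
Deviation of each mouse from the mean of the 10 mice, as log2(normalized count + 1), for the 10 fat absorption genes (above the line) and 6 regional genes (below it), with red for higher and blue for lower and colours ending at 2 in either direction. Vil-Cre 3 and 4 and Vil-Cre:NDI1 1, 2 and 3 are red for Fabp1, Apoa4 and Onecut2 and blue for Fabp2, Slc10a2 and Fabp6, while Vil-Cre 5 is blue in all 10 fat absorption genes.

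Vil-Cre 5 stood apart in other ways. It had the lowest summed enterocyte markers, 237977 normalized counts where the other mice had 301868 to 410607, and a B-cell gene that was near 0 elsewhere was high in it. Ms4a1, which encodes the B-cell surface protein CD20, was at 236 normalized counts there and at 0 to 7.83 in the other 9 mice. The most abundant gene of the list of B and plasma cell markers, Jchain, was not high there, at 1394 where the other mice had 1307 to 4383. How far these values account for the low fat absorption genes of that mouse was not tested.

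Liver expresses Apoa1, Apob, Apoc3, Fabp1 and Mttp too, and hepatocyte transcripts were present in some libraries. Alb, which encodes albumin, was at 762, 63.5, 294, 15.2 and 558 normalized counts in Vil-Cre mice and at 0.980, 17.3, 36.8, 47.0 and 36.4 in Vil-Cre:NDI1 mice. The 13 hepatocyte markers summed to 178 to 2637 in Vil-Cre mice and 125 to 542 in Vil-Cre:NDI1 mice, and none was at 0 in all mice. Among the 7 tested, 0 passed the adjusted threshold with limma and 0 had a log2 fold change above 0, against 51.2% of all tested genes. At an unadjusted p under 0.05 with limma there were 3, all lower with NDI1, against 4.24% of all tested genes. Per kilobase their highest gene was Alb in controls (mean 144.5) and Cyp2e1, a cytochrome P450, with NDI1 (mean 52.6). Of the 5 members named here, all were above the means of both genotypes in Vil-Cre 4, and all but Apob were in Vil-Cre:NDI1 1, where Apob at 75491 was below the mean with NDI1. These are the 2 libraries with the least Alb, and both are also among the 5 mice highest in Fabp1. The part of liver RNA in the values was not tested. Of the 8 pancreatic acinar markers, 4 were at 0 in all mice, and Clps was the most abundant, at 257 to 1153.

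In the wider pathway, 0 of the 77 genes tested passed the adjusted threshold with limma, against 0.00699% of all tested genes, and 7 had an unadjusted p under 0.05, against 4.24%. For lipid uptake, activation and sterol transport, 0 of 12 passed. Acsl5, an acyl-CoA synthetase of the enterocyte, had 17024, 18474, 17515, 16130 and 14594 normalized counts in Vil-Cre mice and 18685, 19681, 18702, 20944 and 25530 in Vil-Cre:NDI1 mice. Every Vil-Cre:NDI1 mouse was above every control, as in 0.699% of all tested genes in either direction, by 0.30 on the log2 scale in the mean (standard error 0.11, limma adjusted p = 0.998, unadjusted p = 0.0212). Acsl3, a related synthetase at a far lower level, had a log2 fold change of 0.44 (unadjusted p = 0.0236 with limma). Npc1l1, the cholesterol transporter blocked by ezetimibe, and Slc27a4, a fatty acid transport protein, had log2 fold changes of 0.09 and 0.11.

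For triacylglycerol and phospholipid synthesis, 0 of the 12 tested genes passed. Dgat2, the other diacylglycerol acyltransferase, was at 3796, 2875, 5947, 4373 and 2901 normalized counts in Vil-Cre mice and at 7547, 6542, 6480, 3446 and 4973 in Vil-Cre:NDI1 mice. Vil-Cre:NDI1 1, 2 and 3 were above every control, while Vil-Cre:NDI1 4 and 5 lay within the range of the controls, and the log2 fold change was 0.55 (standard error 0.24, limma adjusted p = 0.998, unadjusted p = 0.0441). Lpin3, a phosphatidate phosphatase, had a log2 fold change of 0.34 (unadjusted p = 0.00750 with limma). Soat2, which esterifies cholesterol, and Lpcat3, which makes polyunsaturated phosphatidylcholine, had 0.15 and 0.18. Mogat1, a relative of Mogat2, was near the floor, with 0 to 8.02 normalized counts in each library.

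Of the lipoprotein proteins and genes of Apob editing, 0 of the 9 tested passed. The 2 with an unadjusted p under 0.05 in limma were lower with NDI1: Apoe by a log2 fold change of -0.71 (unadjusted p = 0.0124, adjusted p = 0.998) and Apoa2, an apolipoprotein of the liver, by -1.41 (unadjusted p = 0.0325, adjusted p = 0.998). Apoa2 was at 121, 26.3, 39.1, 8.09 and 56.3 normalized counts in Vil-Cre mice and at 19.6, 9.11, 9.68, 11.8 and 17.6 in Vil-Cre:NDI1 mice. Its 3 highest mice, Vil-Cre 1, 5 and 3, were also the 3 highest for Alb. The same 3 mice were highest for Apoa5 (0.968 to 30.8) and Apoc1 (0.980 to 47.7), which were under the filter on low values, as was Apom (0 to 5.06). Prap1, a lipid-binding partner of the transfer protein, and P4hb, its other subunit, had log2 fold changes of 0.18 and 0.19, and Apoc2 had 0.30.

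In the COPII coat and chylomicron export list 0 of 20 passed, with log2 fold changes of 0.19 for Surf4, a cargo receptor for lipoproteins, 0.18 for Sec23a and 0.14 for Sec31a, and 17 of the 20 were above 0, as were 57 of the 77 pathway genes and 51.2% of all tested genes. In the list of lipid droplets and lipolysis 0 of 11 passed, with 0.16 for Cideb, which helps to lipidate apolipoprotein B particles, 0.01 for Plin3 and 0.07 for Cidec. Among 13 transcription factors 0 passed. Creb3l3, a membrane-bound factor that switches on Apoa4 and Apoc2, was at 5559, 5571, 6936, 6152 and 5304 normalized counts in Vil-Cre mice and at 6831, 7724, 7570, 6871 and 8507 in Vil-Cre:NDI1 mice. Only Vil-Cre 3 reached into the range of the Vil-Cre:NDI1 mice, and the log2 fold change was 0.35 (standard error 0.10, limma adjusted p = 0.998, unadjusted p = 0.00421). Hnf4a and Hnf4g, nuclear receptors of the enterocyte, had 0.10 and 0.14.

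Over the 10 mice, with each genotype centred on its own mean, the genes outside the 10 whose log2 values were most like the mean of the 10 were Tmem30b (Pearson r = 0.987), Itfg3 (0.986), Cideb (0.985), Scp2, which encodes sterol carrier protein 2 (0.979), and Pgrmc1 (0.972). Their log2 fold changes were 0.12, 0.16, 0.16, 0.12 and 0.12. By the same measure Apoa1 was closest to the mean among the 10 (0.974), Apob and Apoc3 followed (0.954 and 0.944), and Fabp2 was at -0.12. Each of the 10 is itself part of that mean, which raises its r beside those of the genes outside. These values come from the same 10 libraries and describe likeness over mice only.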

How the data were processed

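Jejunum libraries of 10 mice, 5 per genotype, were grouped by sample title. Per the study's methods, the authors adapter-trimmed single-end reads, mapped these to GRCm38 plus NDI1 using STAR, quantified genes using Salmon, and analysed them using DESeq2. The deposited signal per gene (normalized counts) was taken, from its values, as reads divided by a size factor per library. Each library's smallest step gave whole reads for 100% of values (tolerance 0.01). Replicates differed beyond counting noise (chi-square divided by genes, 13.2 to 61.9), so none was treated as a duplicate. Coordinates and lengths come from GENCODE M21, which held 45143 of the 45707 identifiers. Genotypes were compared with limma 3.58.1 (R 4.3.3) on log2(value + 1), with a variance trend, over genes with at least 10 in at least 5 mice, Benjamini-Hochberg adjusted, and the tests were tried on simulated data. Fold changes on this scale understate changes of low genes. Alternatives included DESeq2 1.42.0 and edgeR 4.0.16 on recovered reads, other scalings, filters and pseudocounts, and leaving out each mouse. Of 216 listed genes 215 matched, 2 of them by identifier. By rule, the genes named are the 10, NDI1, and of each pathway list the 3 highest per kilobase, those with an unadjusted p under 0.05 and those under the filter, with the most abundant gene of each cell type list used and the 5 genes most like the 10. Other genes in the text were named after their values were seen. Members and lists were chosen with earlier results of these data known. Counting intervals cover counting error only. No table of the authors' comparisons was used.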

Additional observations from a re-analysis of the deposited data

How the results depend on the processing

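With all 10 libraries or 9 of them, 0 of the 10 genes and 0 of the wider pathway genes passed the threshold under every scaling, filter, pseudocount and test tried. DESeq2 on 8 libraries, without Vil-Cre 3 and Vil-Cre 4, called 2 of the 10, Fabp1 at 1.26 and Apoc3 at 0.83. It also called 7 of the 79 pathway genes tested there, where it called 1.77% of all genes. Vil-Cre 3 and Vil-Cre 4 are the controls highest in Fabp1, and whether their values or the smaller number of mice moved these calls was not tested. Over all tested genes the count of 1 became 2 with a minimum of 50 and 2 with array weights. It became 31 with DESeq2 on all libraries, 276 with DESeq2 on 8 libraries and 0 with exact permutation tests. In the permutation tests NDI1 kept its difference of 10.34 (adjusted p = 0.999). There 5 mice against 5 allow no p under 0.00794, so a gene can pass after adjustment only if many genes reach that p. Leaving out each mouse gave 1 to 3 genes (2 without Vil-Cre:NDI1 1 and 3 without Vil-Cre:NDI1 5). Over the 10 genes the adjusted p from all alternatives ran from 0.00892 to 1.00.

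The genotype difference of Fabp2 changed sign, to -0.040 with array weights and -0.012 without Vil-Cre:NDI1 5. Leaving out each mouse gave log2 fold changes of 0.05 to 0.22 for Apoa1, 0.18 to 0.64 for Apoa4, 0.01 to 0.20 for Apob, 0.12 to 0.56 for Apoc3, 0.12 to 0.30 for Mttp, 0.31 to 0.88 for Fabp1, -0.012 to 0.39 for Fabp2, 0.09 to 0.20 for Mogat2, 0.04 to 0.20 for Dgat1 and 0.14 to 0.29 for Sar1b. Small differences of other genes changed sign too: Npc1l1 to -0.0014 and Plin3 to -0.018 with array weights, Plin3 to -0.053 with equal totals, and Hnf4a to -0.027 with DESeq2 and -0.037 with edgeR on 8 libraries. Leaving out each mouse gave -0.023 to 0.16 for Npc1l1, -0.018 to 0.63 for Apoc2, -0.041 to 0.044 for Plin3, -0.081 to 0.17 for Cidec and -0.0037 to 0.29 for Hnf4g. The cause was not tested.

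A replicate block left 1 gene and 0 of the 10 past the threshold. The numbers do not pair the mice, since deviations of same-numbered mice correlated at -0.12 to 0.14 and 2 of the 10 mice correlated best with their own number. The 10 genes had 1476 to 174705 reads per library, so counting error was small beside the spread between mice.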
